A study of Mus musculus with 78 samples.

Results

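The nuclear genes of the mitochondrial respiratory chain and the ATP synthase were followed through the first days of mouse embryo life, from the blastocyst to the gastrulating embryo and in embryos kept in culture. Genes were taken by symbol: every row of the expression tables beginning with Nduf, Uqcr, Cox4 to Cox8, Atp5, or Sdha to Sdhd, with names ending in -ps left out. The rule gave 94 of the 22563 genes that the 3 tables share. It gave 44 genes for complex I, 6 for complex II, 8 for complex III, 20 for complex IV and 16 for complex V. The names also took in 11 genes that are assembly factors or associated proteins rather than subunits (8 of complex I, 2 of complex II and 1 of complex IV) and 1 gene classed here as a regulator of complex V, so the set is wider than subunits in the strict sense. No gene encoded in mitochondrial DNA was among the genes used here.

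RNA was sequenced from 30 libraries in 15 groups of 2, made with the Smart-Seq2 protocol. The in vivo groups were inner cell mass (ICM) and trophectoderm (TE) of the E3.5 blastocyst, ICM of E4.0, visceral endoderm (VE) and epiblast (Epi) of E5.5 and of E6.5, and endoderm (End), mesoderm (Mes), primitive streak (PS) and ectoderm (Ect) of E7.5. For E3.5 and E4.0, superovulated C57BL/6N females were mated to DBA/2N males, and the ICM was freed by immunosurgery and lysed directly. Embryos of E5.5 to E7.5 came from natural matings of the same strains, and their RNA went through a column kit. Cultured (IVC) embryos were flushed at E4.5 and grown in a medium with 20% fetal bovine serum for 1, 2 or 4 days. After 4 days they were cut into VE and epiblast with enzymes and by hand. The labels call the libraries of 1 and 2 days whole embryos while their protocol describes isolation of the ICM, and they are called cultured embryos here. The column names of these libraries hold E40, which may stand for E4.0 and would then differ from the flush at E4.5. The labels give no litters or pools, so p-values measure the spread between these samples, which may be technical.

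The respiratory chain moves electrons from NADH through complex I, or from succinate through complex II, to ubiquinone, then through complex III and cytochrome c to oxygen at complex IV. Complexes I, III and IV pump protons as they do so, and complex V, the ATP synthase, uses the proton gradient to make ATP. In each pumping complex the subunits that carry the chemistry are among a few core subunits, and a larger ring of small accessory subunits stabilises the complex. A core subunit is not always catalytic, and the core class of complex III here holds Uqcrc1, Uqcrc2 and Uqcrfs1. Early embryos take up pyruvate before they take up much glucose, and use of glycolysis rises around implantation. Many nuclear genes of the chain have CpG-rich promoters with sites for NRF1, for GABP (an ETS-family factor) and for YY1.

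Promoter windows of 250 bases before to 50 after the start were matched for 78 of the 94 genes in RefSeq (build GRCm38.p6), giving 84 windows since 6 genes had 2. The deposited values were made on the mm9 build, and the windows serve only to show sequence. A set of 3 short motifs was searched on both strands. GCATGCG, the core of the NRF1 site, was in 13 of 84 windows (15.5%), against 3.58% of all 32851 RefSeq windows. CCGGAAG, an ETS motif, was in 19 of 84 (22.6%), against 8.86% of all windows. ATGGCGG, a YY1 motif, was in 15 of 84 (17.9%), against 4.05% of all windows, and in 12 of the 42 windows of complex I (28.6%). Atp5sl and Ndufa7 gave 2 each of these 12 windows. The motif holds an ATG and windows run 50 bases past the start, so matches may lie at starts of translation, which was not tested. At least 1 of the 3 motifs was in 46.4% of the windows of these genes and in 14.8% of all windows. Member windows held a median of 20 CpG and 58.5% G and C, against 7 CpG and 52.7% over all windows, and the part of this composition in the motif shares was not tested.

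The 5 windows here are shown for 4 genes with called differences and for the isoform Cox7a1, whose differences were not called, each 5′ to 3′ on the strand of its gene, with motif letters in capitals. Sdhb, the iron-sulfur subunit of complex II (chr4:140961021-140961320, plus strand), has the NRF1 motif starting at -54 and the ETS motif at 7 from the start. Uqcrc1, a core subunit of complex III (chr9:108936398-108936697, plus strand), has the NRF1 motif on both strands, overlapping, at 33 and 32. Atp5b, the catalytic beta subunit of complex V (chr10:128083057-128083356, plus strand), has the YY1 motif on the opposite strand at 16. That match lies past the start and, with the next base, reads CCGCCATG, which holds an ATG on the strand of the gene. Atp5k, a small membrane subunit of complex V (chr5:108434350-108434649, minus strand), has the NRF1 motif on both strands at -48 and -49 and the ETS motif on the opposite strand at 13. Cox7a1, an isoform of complex IV known from heart and muscle (chr7:30183921-30184220, plus strand), has none of the 3 motifs in this window.
Sdhb: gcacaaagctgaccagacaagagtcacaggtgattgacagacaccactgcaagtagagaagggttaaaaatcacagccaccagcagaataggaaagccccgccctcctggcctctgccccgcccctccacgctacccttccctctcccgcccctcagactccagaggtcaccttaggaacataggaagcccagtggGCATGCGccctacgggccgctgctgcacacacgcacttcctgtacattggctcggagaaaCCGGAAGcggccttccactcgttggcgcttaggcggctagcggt
Uqcrc1: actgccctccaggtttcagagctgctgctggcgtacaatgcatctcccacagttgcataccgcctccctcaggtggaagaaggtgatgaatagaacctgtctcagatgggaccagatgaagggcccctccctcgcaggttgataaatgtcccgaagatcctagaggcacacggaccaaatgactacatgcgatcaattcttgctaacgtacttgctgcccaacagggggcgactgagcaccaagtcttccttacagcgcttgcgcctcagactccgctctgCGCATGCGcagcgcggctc
Atp5b: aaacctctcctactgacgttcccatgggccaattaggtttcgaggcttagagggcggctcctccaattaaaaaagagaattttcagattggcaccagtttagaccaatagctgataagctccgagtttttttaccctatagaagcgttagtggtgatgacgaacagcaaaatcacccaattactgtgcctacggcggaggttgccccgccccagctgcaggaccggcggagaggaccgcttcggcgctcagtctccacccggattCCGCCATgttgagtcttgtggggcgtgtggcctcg
Atp5k: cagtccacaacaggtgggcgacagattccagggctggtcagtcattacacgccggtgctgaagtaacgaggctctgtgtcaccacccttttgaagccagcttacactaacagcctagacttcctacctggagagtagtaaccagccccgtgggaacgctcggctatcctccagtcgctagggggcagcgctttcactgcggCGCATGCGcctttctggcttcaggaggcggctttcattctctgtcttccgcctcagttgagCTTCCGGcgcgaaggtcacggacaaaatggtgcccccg
Cox7a1: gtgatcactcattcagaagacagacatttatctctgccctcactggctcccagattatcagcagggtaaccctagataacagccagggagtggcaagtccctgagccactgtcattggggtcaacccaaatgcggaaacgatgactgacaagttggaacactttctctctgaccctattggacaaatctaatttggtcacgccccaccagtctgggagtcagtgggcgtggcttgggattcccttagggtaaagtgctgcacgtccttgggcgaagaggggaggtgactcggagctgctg

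Levels are given as FPKM (fragments per kilobase of transcript, scaled to the mapped total), which divides by transcript length. Over the 22 in vivo libraries the highest medians were those of Atp5k (1465 FPKM), Atp5b (1253 FPKM), Ndufa4 (1116 FPKM) and Cox8a (791 FPKM). Ndufa4, long listed with complex I, is a subunit of complex IV. By class, the median FPKM per gene was 647 for the common subunits of complex IV and 611 for the F1 head of complex V. It was 269 for the Fo part of complex V, 380 for accessory and 181 for core subunits of complex III, and 218 for accessory and 123 for core subunits of complex I. The 4 subunits of complex II had 141 FPKM and the assembly factors of complex I had 20.5 FPKM. Core and accessory subunits of 1 complex therefore did not lie at the same FPKM, and the part of transcript length in this was not tested.

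Summed over all 94 genes, the set took 8.56% of the FPKM of E5.5 VE libraries and 8.25% of E3.5 TE libraries, and between 5.21% and 6.35% in the other 9 in vivo groups. In FPKM itself the set summed to means of 25768 in E5.5 VE and 27166 in E3.5 TE, below 28556 in E7.5 End and 29549 in E7.5 Ect. The means of the other in vivo groups lay between 19357 and 24901. A share divides by the library total, and the lowest in vivo total, 272055, was that of an E5.5 VE library. Complex IV held the largest share in E5.5 VE and in E3.5 TE. It took 2.24% ± 0.12 in E3.5 ICM, 3.26% ± 0.69 in E3.5 TE, 2.15% ± 0.036 in E4.0 ICM, 2.78% ± 0.19 in E5.5 VE and 1.21% ± 0.075 in E7.5 PS (SD, n = 2 each). The TE libraries were 3.75% and 2.77%, so the lower of them was close to E5.5 VE at 2.92% and 2.65%. Complex II went the other way in E5.5 VE, where its mean share was 0.0969% ± 0.016, the lowest of the in vivo groups. Its E5.5 VE libraries were at 0.0858% and 0.108%. The second was above E7.5 Ect replicate 2 at 0.1068% and E3.5 TE replicate 1 at 0.1074%, so these groups overlapped. The E3.5 TE mean was next lowest, at 0.126%.

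**Figure D1:**
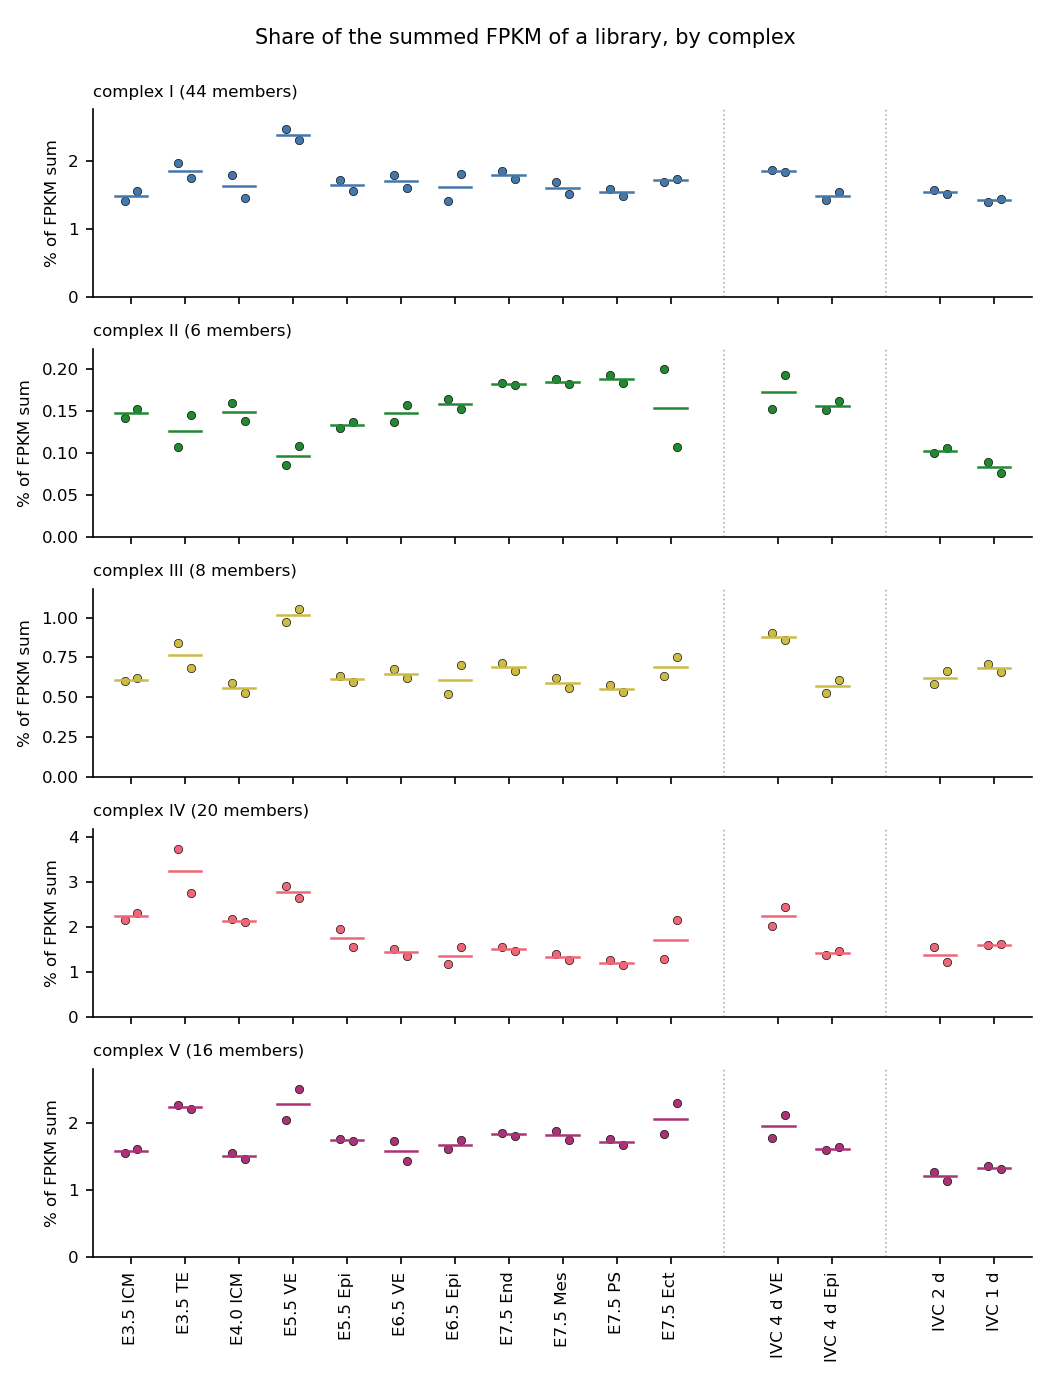
Share of summed FPKM (percent, vertical axis) taken by each of the 5 complexes, by group (horizontal axis), where points are libraries, bars are means of 2 libraries and dotted lines part the 3 tables. Complex IV stands highest in E3.5 TE and E5.5 VE, at means of 3.26% and 2.78%. Complex II has its lowest in vivo mean in E5.5 VE, at 0.0969%, with libraries that overlap those of E3.5 TE and E7.5 Ect.

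For this gene set 91 of 94 genes entered the test, which asked for at least 1 FPKM in at least 2 of the 30 libraries. Cox8b was listed at 0 in all 30 libraries, Cox8c reached 0.765 FPKM and Cox6a2 reached 2.28 FPKM in its highest library. These are isoforms known from muscle or testis. Tests were made with limma on log2(FPKM + 1), where fold changes of low genes are understated, and a gene is called when its Benjamini-Hochberg adjusted p over 13493 genes is under 0.05 and its log2 fold change at least 1 in size. Of the 91, 40 were called in none of the 15 comparisons, a count for which no share over all tested genes is given here. Among the 62 members with a mean of at least 100 FPKM, the median SD of the log2 group means in vivo was 0.43, against 0.64 for all 689 genes at that level.

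Depth is not known from FPKM. Summed FPKM over the shared genes ran between 272055 and 486836 in vivo, and the lowest sums were in E5.5 VE (272055 and 329462) and among the 4 libraries of E3.5 (311509 to 338464). Replicate correlations of log2 values ran between 0.898 for embryos cultured for 2 days and 0.994 for E7.5 mesoderm. Members over 2-fold apart between replicates numbered 11 in E7.5 ectoderm and 9 in E3.5 TE and in embryos cultured for 1 and 2 days. They numbered 8 in E5.5 VE and in E6.5 epiblast, and 0 in E3.5 ICM and E7.5 mesoderm. Those of E5.5 VE included Uqcrfs1, Atp5c1, Ndufa10, Uqcrc1 and Sdhc. In E5.5 VE 8.791% of members and 8.471% of all genes were over 2-fold apart, and in E6.5 epiblast 8.791% and 2.209%. In ectoderm these shares were 12.09% and 15.73%, and in E3.5 TE 9.89% and 15.99%. The summed endoderm markers lay between 2953 and 6289 FPKM in VE and endoderm in vivo. Pou5f1, which marks pluripotent cells, was at 20.9 and 2.10 FPKM in E6.5 VE and at 14.1 and 35.8 FPKM in E3.5 TE. Sox1, an early neural marker, stayed at or below 0.35 FPKM in E7.5 ectoderm. The summed markers of maternal decidua and blood reached at most 5.68 FPKM in any library.

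A wide split within the set was seen at E5.5, between VE, the outer layer that feeds the embryo, and the epiblast that it surrounds. Of the 91 tested members, 5 were called higher and 21 lower in VE, where 9.60% of all tested genes were called higher and 27.1% lower. Core subunits of complexes I, II and III and F1 subunits of complex V were among the lower genes, while several small accessory subunits were among the higher ones. The members' median log2 fold was -0.24, against -0.36 for all genes tested. Under quantile normalization these medians were 0.25 and -0.04. The split was 11 members higher and 8 lower, against 2142 higher and 2342 lower of all 13493 genes. The count in each direction therefore depends on scaling.

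Of complex I, 0 of 7 core subunits were called higher and 3 lower, with a median log2 fold of -0.90. Ndufs1, the large iron-sulfur subunit, was at 17.3 and 20.4 FPKM in E5.5 VE, against 75.3 and 76.9 FPKM in E5.5 epiblast. Both VE libraries lay below both epiblast libraries, and the log2 fold was -1.96 ± 0.34 (SE; limma adjusted p = 0.000119). Ndufv1, which binds NADH, was at 21.9 and 31.7 FPKM in VE, against 91.5 and 104 FPKM in epiblast, a log2 fold of -1.85 ± 0.36 (adjusted p = 0.000373). These groups did not overlap either. Among the 8 assembly factors of complex I 5 were lower, with Ndufaf1 at 9.42 and 10.5 FPKM in VE, against 30.5 and 28.7 FPKM in epiblast. Without quantile normalization and with it, the median of these 8 was -1.09 and -0.51.

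Of the 29 accessory subunits of complex I, 3 were higher and 2 lower, and their median log2 fold was 0.21. Ndufa3 was at 957 and 1111 FPKM in E5.5 VE, against 393 and 280 FPKM in epiblast. The VE libraries were both above the epiblast libraries, by 1.63 ± 0.31 on the log2 scale (adjusted p = 0.000256). Ndufb11, an X-linked membrane subunit, was at 179 and 132 FPKM in VE, against 67.8 and 47.5 FPKM in epiblast (log2 fold 1.42 ± 0.34, adjusted p = 0.00197). Ndufb4 rose too, by 1.61 ± 0.46 (adjusted p = 0.00801), but RefSeq lists 2 copies of it with which its reads could be shared, and the call was lost without E5.5 epiblast replicate 2 or without E5.5 VE replicate 1. Against these, Ndufa9 and Ndufa10, both large accessory subunits, fell by 1.17 and 1.64 on the log2 scale.

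In complex II, 2 of 4 subunits were lower and none higher, with a median log2 fold of -0.89. Sdha, the flavoprotein that oxidises succinate, was at 22.7 and 36.8 FPKM in E5.5 VE, against 116 and 102 FPKM in epiblast. Sdhb was at 53.6 and 64.3 FPKM in VE, against 166 and 128 FPKM in epiblast. For both genes the libraries of the groups did not overlap, and log2 folds were -1.88 ± 0.33 (adjusted p = 0.000154) and -1.29 ± 0.24 (adjusted p = 0.000208). The membrane anchors Sdhc and Sdhd were not called, at log2 folds of -0.48 ± 0.32 and -0.47 ± 0.28. In complex III all 3 core subunits were lower and their median was -1.22. The call of Uqcrfs1 did not hold under all alternatives, over which its log2 fold ran between -1.62 and -0.37. Its E5.5 VE libraries were over 2-fold apart. Uqcrc1 was at 42.0 and 85.5 FPKM in VE, against 200 and 201 FPKM in epiblast (log2 fold -1.73 ± 0.38, adjusted p = 0.00116). Among the 5 accessory subunits of complex III, 1 was higher and none lower, and all 5 had a fold above 0. The higher one, Uqcrq, a small subunit in the membrane, was at 690 and 1063 FPKM in VE, against 435 and 415 FPKM in epiblast, a log2 fold of 1.01 ± 0.27 (adjusted p = 0.00543). That call was lost without E5.5 epiblast replicate 2 or without E5.5 VE replicate 2, where the log2 fold was 0.98 and 0.70.

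In complex IV, 1 of 11 common subunits was higher and none lower, with a median log2 fold of 0.10. That gene was Cox5b, at 121 and 122 FPKM in E5.5 VE, against 88.8 and 38.5 FPKM in epiblast, with no overlap (log2 fold 1.04 ± 0.37, adjusted p = 0.0272). Its log2 fold was 0.45 (adjusted p = 0.415) without epiblast replicate 2 and 1.63 without epiblast replicate 1, and the call was also lost when either VE library was left out. In complex V, 3 of the 5 F1 genes were lower and none of the 10 Fo genes was called. Atp5b was at 250 and 451 FPKM in VE, against 1417 and 1197 FPKM in epiblast, and Atp5a1, the alpha subunit, at 138 and 223 FPKM in VE, against 594 and 657 FPKM in epiblast. Both VE libraries were far below both epiblast libraries, with log2 folds of -1.95 ± 0.30 (adjusted p = 3.49e-05) and -1.83 ± 0.25 (adjusted p = 1.01e-05). Atp5e, a small subunit of the same F1 head, was at 879 and 1590 FPKM in VE, against 841 and 812 FPKM in epiblast, and was not called.

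**Figure D2:**
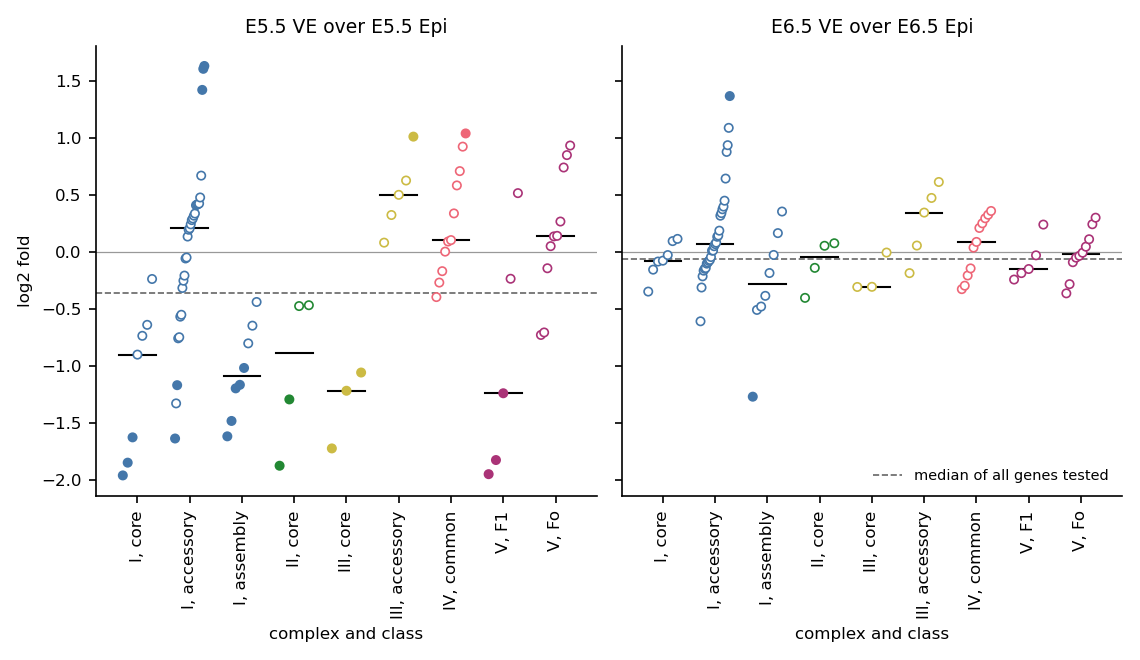
Log2 fold (vertical axis) of each tested member in VE over epiblast by class (horizontal axis), at E5.5 on the left and E6.5 on the right; points are genes, filled where called, bars are class medians and the dashed line is the median of all genes tested. At E5.5 the core classes of complexes I, II and III and the F1 class lie below 0 at medians of -0.90, -0.89, -1.22 and -1.24, and the accessory classes of I and III lie above it at 0.21 and 0.50.

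The size of these folds moved with scaling, while the core medians of complexes I and III stayed below those of their accessory subunits and F1 below Fo. Under quantile normalization the medians were -0.21 for the core of complex I and 0.65 for its accessory subunits, -0.22 for complex II, -0.48 for the core and 0.83 for the accessory subunits of complex III, and -0.79 for F1 and 0.50 for Fo. Atp5b had a log2 fold of -1.61, Ndufs1 of -1.17 and Sdha of -1.07 in that fit. A measure within each library, the mean log2 value of 10 chosen genes (Ndufs1, Ndufv1, Sdha, Sdhb, Uqcrc1, Uqcrfs1, Cox5a, Atp5a1, Atp5b and Atp5c1, which are core or F1 genes apart from Cox5a, a common subunit of complex IV) minus that of the other 81 tested members, is hardly touched by a common scaling factor. It was -0.49 and -0.13 in the E5.5 VE libraries, and between 0.46 and 1.39 in the other in vivo libraries. The low end of that range, 0.46, belonged to an E3.5 TE library whose replicate was at the top with 1.39. E5.5 VE also held the library with the lowest summed FPKM. Pou5f1 was at 0.277 and 0.490 FPKM in these VE libraries, against 456 and 255 FPKM in epiblast. The index was built with the direction of these genes known and is a description. In addition, the core subunits are mostly the larger proteins of each complex, so class and transcript length cannot be told apart here.

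**Figure D3:**
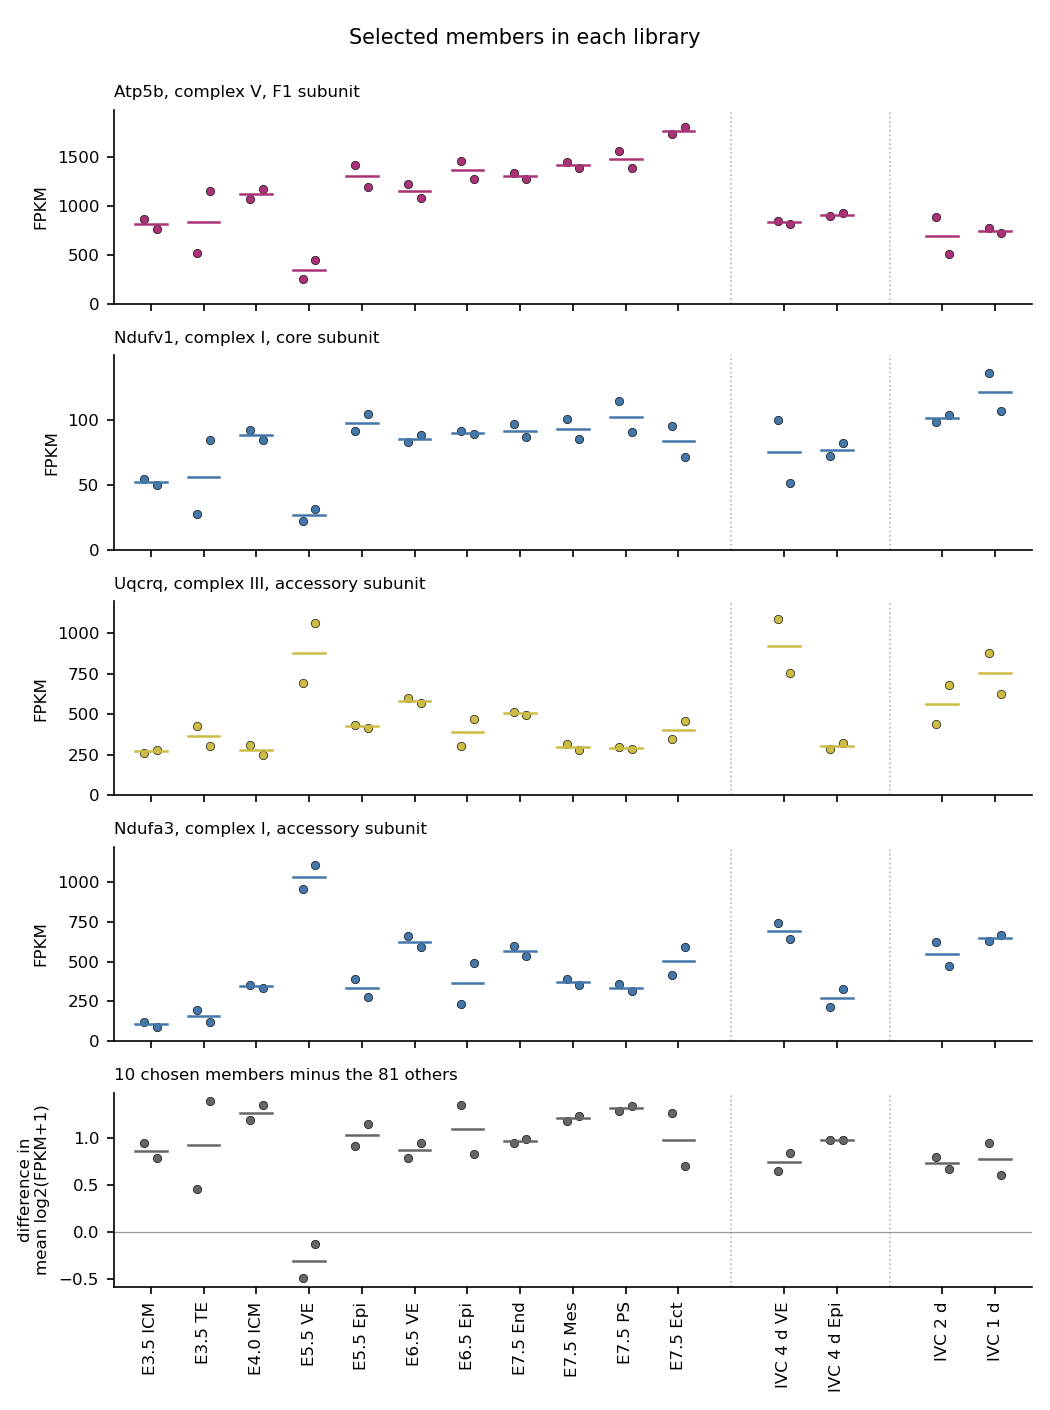
FPKM (vertical axes) of the F1 gene Atp5b, the core gene Ndufv1 and the accessory genes Uqcrq and Ndufa3 by group (horizontal axis), and in the lowest panel the mean log2(FPKM + 1) of the 10 chosen genes minus that of the other 81 members; points are libraries, bars are means of 2, and dotted lines part the 3 tables. In the lowest panel the E5.5 VE libraries sit below 0 at -0.49 and -0.13, and all other in vivo libraries lie between 0.46 and 1.39. The 10 genes were chosen with their direction known.

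Genes of related pathways were also called lower in E5.5 VE. Of 16 genes of the TCA cycle, which feeds NADH and succinate to the chain, none was higher and 9 lower than in epiblast, with a median log2 fold of -1.20. Of 76 mitochondrial ribosomal proteins, which translate the subunits encoded in mitochondrial DNA, 2 were higher and 39 lower, where 9.60% of all genes tested were called higher and 27.1% lower. Of 11 regulators 1 was higher and 7 lower. Nrf1 was at 5.69 and 5.39 FPKM in VE, against 24.4 and 25.5 FPKM in epiblast, and Gabpa was at 5.43 and 7.37 FPKM in VE, against 26.0 and 22.2 FPKM in epiblast. Tfam, which packages and transcribes mitochondrial DNA, was at 9.99 and 12.5 FPKM in VE, against 40.5 and 30.9 FPKM in epiblast. In all 3 genes VE lay below epiblast with no overlap, at log2 folds of -1.99, -1.77 and -1.58. Of 16 glycolysis genes 1 was higher and 11 lower. The medians of these 4 lists stayed below 0 under quantile normalization, at -0.39, -0.27, -0.91 and -1.11. Cytochrome c of somatic type, Cycs, was not called, while its testis form Cyct was at 0.479 and 1.01 FPKM in VE, against 84.9 and 72.6 FPKM in epiblast. Slc25a4, which exchanges ADP for ATP, was higher in VE, at 232 and 305 FPKM, against 93.2 and 86.3 FPKM in epiblast.

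At E6.5 no core or F1 gene was called between VE and epiblast. Here 1 member was called higher and 2 lower in VE than in epiblast, where 16.5% of all genes were called. Atp5b was at 1227 and 1088 FPKM in E6.5 VE, against 1462 and 1279 FPKM in E6.5 epiblast, and Ndufs1 was at 66.0 and 65.3 FPKM in VE, against 93.7 and 75.2 FPKM in epiblast. VE was below epiblast in both genes and neither was called. Ndufb11 was the higher gene, at 109 and 136 FPKM in VE, against 36.6 and 59.6 FPKM in epiblast (log2 fold 1.37 ± 0.34, adjusted p = 0.00561). The lower genes were Atp5sl, a complex I assembly factor (log2 fold -1.27 ± 0.35, adjusted p = 0.0116), and the isoform Ndufa4l2, at 1.64 and 1.94 FPKM in VE, against 7.15 and 8.45 FPKM in epiblast (log2 fold -1.66 ± 0.58, adjusted p = 0.0497). The count of 3 was 0 without epiblast replicate 1 or without VE replicate 2, and 1 without VE replicate 1, and it was 6 with array weights.

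Within VE, 21 members rose at E6.5 over E5.5 and none fell, where 24.7% of all genes were called higher and 2.49% lower. Among core subunits, 5 of 7 of complex I, 3 of 4 of complex II, 2 of 3 of complex III and 3 of 5 of F1 rose. None of the 11 common subunits of complex IV was called, and their median log2 fold was -0.39. Sdha was at 117 and 124 FPKM in E6.5 VE, against 22.7 and 36.8 FPKM in E5.5 VE, a log2 fold of 2.02 ± 0.33 (adjusted p = 0.000287). Atp5a1 was at 586 and 566 FPKM in E6.5 VE, against 138 and 223 FPKM in E5.5 VE, a log2 fold of 1.71 ± 0.25 (adjusted p = 0.000122). The stages did not overlap in either gene. Ndufa9, at 176 and 164 FPKM in E6.5 VE, against 34.2 and 52.1 FPKM in E5.5 VE, had a log2 fold of 1.99 ± 0.28 (adjusted p = 0.000111). The median of all genes was 0.50 here and that of the members 0.22. With quantile normalization these were 0.05 and -0.31. The split turned to 4 members higher and 11 lower, against 543 higher and 948 lower of all 13493 genes. The class medians in that fit were 0.60 for the core of complex I, 0.32 for complex II, 0.45 for the core of complex III, 0.72 for F1 and -0.68 for the common subunits of complex IV. Of the TCA cycle genes 14 of 16 rose, and of the mitochondrial ribosomal proteins 35 of 76, with none lower in either list, and their medians under quantile normalization were 0.43 and 0.01. Between the epiblasts of E6.5 and E5.5, 4 of 91 members and 1276 of 13493 genes had an unadjusted limma p under 0.05. After adjustment limma called 0 members there, where 0.978% of all genes were called. That count was 1 without E5.5 epiblast replicate 1, and also 1 with array weights.

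The change of the VE over epiblast fold between E5.5 and E6.5 was tested itself. It was called for 7 members, all with a positive difference (E6.5 minus E5.5), where 5.28% of all genes were called in that direction and 0.793% in the other. Among them were Ndufv1, Ndufa9 and Ndufa10 of complex I, Sdha of complex II, and Atp5a1 and Atp5b of complex V. All 7 were called lower in VE at E5.5 and none was called at E6.5, where the log2 fold of Atp5b was -0.24, against -1.95 at E5.5. For Atp5a1 the log2 difference was 1.64 ± 0.35 (adjusted p = 0.0171) and for Atp5b 1.71 ± 0.42 (adjusted p = 0.0251). The median over all genes was 0.41. With quantile normalization it was 0.04, 124 of 13493 genes were called higher and 272 lower, and no member was called. The count was 0 or 1 when any of 7 of the 8 libraries was left out, namely 0 without E5.5 epiblast replicate 2, E5.5 VE replicate 1, E6.5 epiblast replicate 2, E6.5 VE replicate 1 or E6.5 VE replicate 2, and 1 without E5.5 epiblast replicate 1 or E6.5 epiblast replicate 1. It was 10 without E5.5 VE replicate 2.

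**Figure D4:**
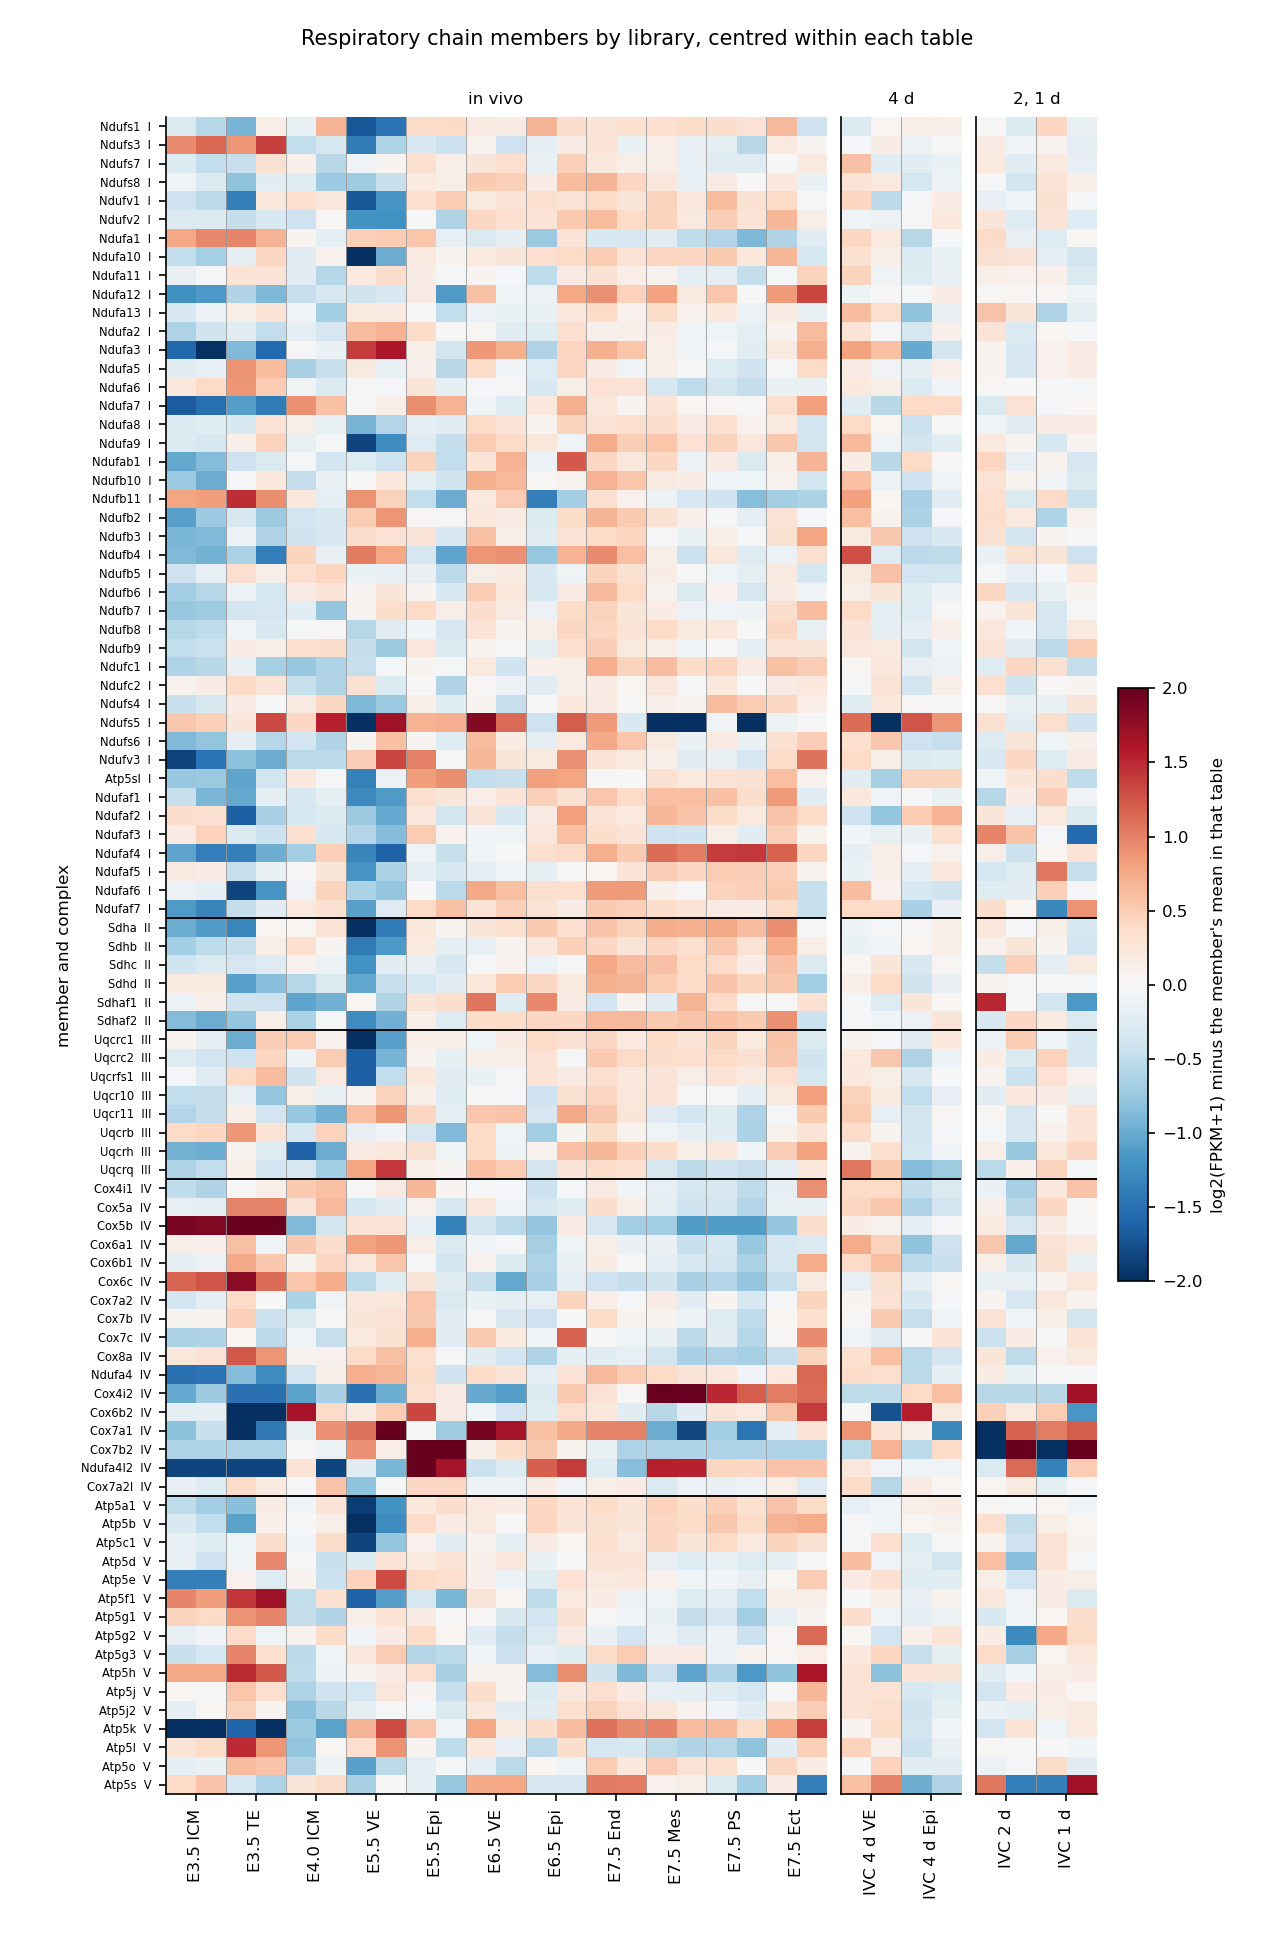
Log2(FPKM + 1) of 90 of the 91 tested members (rows, with their complex) in each library (columns, 2 per group), minus the member's mean within its table, on a colour scale in log2 units. In the E5.5 VE columns the rows of Ndufs1, Ndufv1, Sdha, Uqcrc1 and Atp5b are low while those of Ndufs7, Atp5e and many accessory genes are not, and Cox5b is high in E3.5 ICM (373 and 363 FPKM) and TE (714 and 623 FPKM).

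In the E3.5 blastocyst, 4 members were called higher and 3 lower in ICM than in TE, the outer layer that forms placenta, where 9.54% of all genes were called higher and 7.75% lower. Only 19 of the 91 had a fold above 0, and the median log2 fold was -0.38, against 0.02 for all genes. Under quantile normalization the split was 4 higher and 1 lower, against 1367 higher and 1359 lower of all 13493 genes. The lower genes were Cox5a, Atp5e and Atp5g3. Cox5a, a subunit of complex IV, was at 644 and 634 FPKM in ICM, against 1442 and 1439 FPKM in TE. The ICM libraries were below the TE libraries, with a log2 fold of -1.17 ± 0.22 (adjusted p = 0.000524). Atp5e was at 245 and 248 FPKM in ICM, against 682 and 535 FPKM in TE (log2 fold -1.29 ± 0.26, adjusted p = 0.00107). Higher in ICM were the assembly factors Ndufaf2 and Ndufaf6, the membrane anchor Sdhd and the isoform Cox6b2. The calls of Ndufaf2, Ndufaf6, Sdhd and Atp5g3 were lost without TE replicate 1, that of Atp5g3 also without ICM replicate 1, and that of Cox6b2 without TE replicate 2. The TE libraries differed between themselves in core genes, with Atp5b at 517 and 1158 FPKM and Sdha at 39.3 and 101 FPKM, and neither gene was called.

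Between E3.5 and E4.0, 10 members rose in ICM and 2 fell, where 15.8% of all genes were called higher and 4.80% lower. The 12 calls were 7 without E3.5 ICM replicate 2. Ndufa7, an accessory subunit of complex I, was at 583 and 461 FPKM in E4.0 ICM, against 96.6 and 108 FPKM in E3.5 ICM. Both E4.0 libraries were several times above both E3.5 libraries (log2 fold 2.34 ± 0.23, adjusted p = 3.2e-07). Ndufa3 was at 356 and 331 FPKM in E4.0 ICM, against 122 and 91.5 FPKM in E3.5 ICM (log2 fold 1.69 ± 0.31, adjusted p = 0.000449). Ndufa4 and Cox4i1, subunits of complex IV, rose by 1.36 ± 0.28 (adjusted p = 0.00132) and 1.11 ± 0.28 (adjusted p = 0.00606). Atp5k was at 583 and 463 FPKM in E4.0 ICM, against 151 and 145 FPKM in E3.5 ICM, a log2 fold of 1.80 ± 0.31 (adjusted p = 0.000287). RefSeq lists 4 pseudogene copies of Atp5k, so its reads may be shared.

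Cox5b, which binds zinc in complex IV, fell most. It was at 53.5 and 76.6 FPKM in E4.0 ICM, against 373 and 363 FPKM in E3.5 ICM. The groups were far apart, at a log2 fold of -2.50 ± 0.37 (adjusted p = 5.05e-05). TE of E3.5 held 714 and 623 FPKM, and every group of E5.5 to E7.5 lay between 38.5 and 128 FPKM. RefSeq lists 1 pseudogene copy of Cox5b. Ndufs3, a core subunit of complex I, fell by 1.45 on the log2 scale (SE 0.27, adjusted p = 0.000513). Under quantile normalization the split of this comparison was 6 higher and 7 lower, against 1099 higher and 1133 lower of all 13493 genes. The median of all genes was then -0.00077 in place of 0.27. In the glycolysis list 8 of 16 genes rose and none fell, with Ldha, which makes lactate, at 218 and 200 FPKM in E4.0 ICM, against 15.6 and 20.7 FPKM in E3.5 ICM.

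From E4.0 to E5.5 the way RNA was prepared changed as well, so stage and preparation cannot be told apart. In E5.5 epiblast 4 members were higher than in E4.0 ICM and none lower, where 17.6% of all genes were called. The count was 2 without E4.0 ICM replicate 2 or without E5.5 epiblast replicate 1. Uqcrh, the hinge protein of complex III, had a log2 fold of 1.41 ± 0.28 (adjusted p = 0.000902). Atp5k was at 1436 and 930 FPKM in E5.5 epiblast, against 583 and 463 FPKM in E4.0 ICM (log2 fold 1.15 ± 0.31, adjusted p = 0.0108). Ndufa4l2 and Ndufv3 were the others. In E5.5 VE, 9 members were higher and 18 lower than in E4.0 ICM, where 9.66% of all genes were called higher and 25.7% lower. Quantile normalization gave 15 members higher and 7 lower, against 2075 higher and 2129 lower of all 13493 genes. The median of all genes was then -0.02 in place of -0.31. Sdha, Uqcrc1, Ndufs1 and Atp5b fell by 1.90, 1.89, 1.86 and 1.74 on the log2 scale, while Uqcrq and Ndufa3 rose by 1.61 and 1.58. This comparison shares its VE libraries with that against epiblast.

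Few members were called across gastrulation. In E7.5 ectoderm over E6.5 epiblast limma called 0 members (background 1.07%). There 5 of 91 members and 1268 of 13493 genes had an unadjusted p under 0.05. In E7.5 primitive streak over E6.5 epiblast it called 0 (background 3.74%), with 5 members and 1624 of all genes at an unadjusted p under 0.05. In mesoderm over streak it called 0 (background 3.38%), with 2 members and 1201 of all genes under that unadjusted p. In endoderm over E6.5 VE it called 0 (background 4.26%), with 5 members and 1621 of all genes under it. Other fits of the same comparisons gave between 0 and 3 members, and ectoderm reached 3 without ectoderm replicate 1 and streak 1 without E6.5 epiblast replicate 1. Endoderm over mesoderm had 2 members lower and none higher (background 10.2%), both of them restricted isoforms. The count was 1 without mesoderm replicate 1, mesoderm replicate 2 or endoderm replicate 2, and 4 with array weights. Atp5b was at 1340 and 1280 FPKM in endoderm, 1450 and 1393 FPKM in mesoderm, 1568 and 1392 FPKM in streak and 1736 and 1805 FPKM in ectoderm. Ectoderm lay above the other tissues and was not set against them in a test. Atp5b was not called in mesoderm over streak or in endoderm over mesoderm.

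Isoforms known from particular tissues lay at far lower levels than the common subunits, and 3 of them (Ndufa4l2, Cox4i2 and Cox7a1) were among the 6 members with the largest SD over the in vivo groups. Cox4i2, the isoform of subunit 4 known from lung and from low oxygen, was at 2.42 and 1.86 FPKM in E7.5 endoderm, against 13.6 and 17.8 FPKM in mesoderm, its highest group. Endoderm lay below mesoderm with no overlap, at a log2 fold of -2.40 ± 0.45 (adjusted p = 0.000535). Its common partner Cox4i1 was at 904 and 776 FPKM in endoderm, against 713 and 626 FPKM in mesoderm, and was not called. Ndufa4l2, known as a gene induced by low oxygen, was at 1.99 and 0.981 FPKM in endoderm, against 9.50 and 9.42 FPKM in mesoderm (log2 fold -2.10 ± 0.58, adjusted p = 0.0175). At E5.5 it was at 2.01 and 0.892 FPKM in VE, against 20.1 and 10.3 FPKM in epiblast, a log2 fold of -2.70 ± 0.58 (adjusted p = 0.000866). The epiblast of E5.5 was its highest group, and both libraries of E3.5 ICM and of TE were listed at 0.

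Cox7a1 ran the other way, with its highest values in VE. It was at 27.3 and 58.4 FPKM in E5.5 VE, against 12.3 and 7.08 FPKM in epiblast, and at 25.1 and 25.4 FPKM in E7.5 endoderm, against 5.69 and 2.76 FPKM in mesoderm. Neither pair of groups overlapped, and limma called neither (at E5.5 the log2 fold was 1.99 ± 0.88, adjusted p = 0.0743). This SE is pooled over all 15 groups and is not the spread of the groups compared. Among those 15 were embryos cultured for 2 days, where Cox7a1 was at 11.5 ± 16.2 FPKM (SD). Cox6b2, the testis form of subunit 6b, was at 9.56 and 9.42 FPKM in E3.5 ICM, against 1.56 and 0.591 FPKM in TE (log2 fold 2.38 ± 0.59, adjusted p = 0.00676). Cox7b2, also a testis form, was at 7.40 and 7.09 FPKM in E5.5 epiblast and at most 1.88 FPKM in the other in vivo groups. In culture it was listed at 0 in replicate 1 and at 26.5 FPKM in replicate 2 after 1 day, and at 0 and 28.0 FPKM after 2 days.

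**Figure D5:**
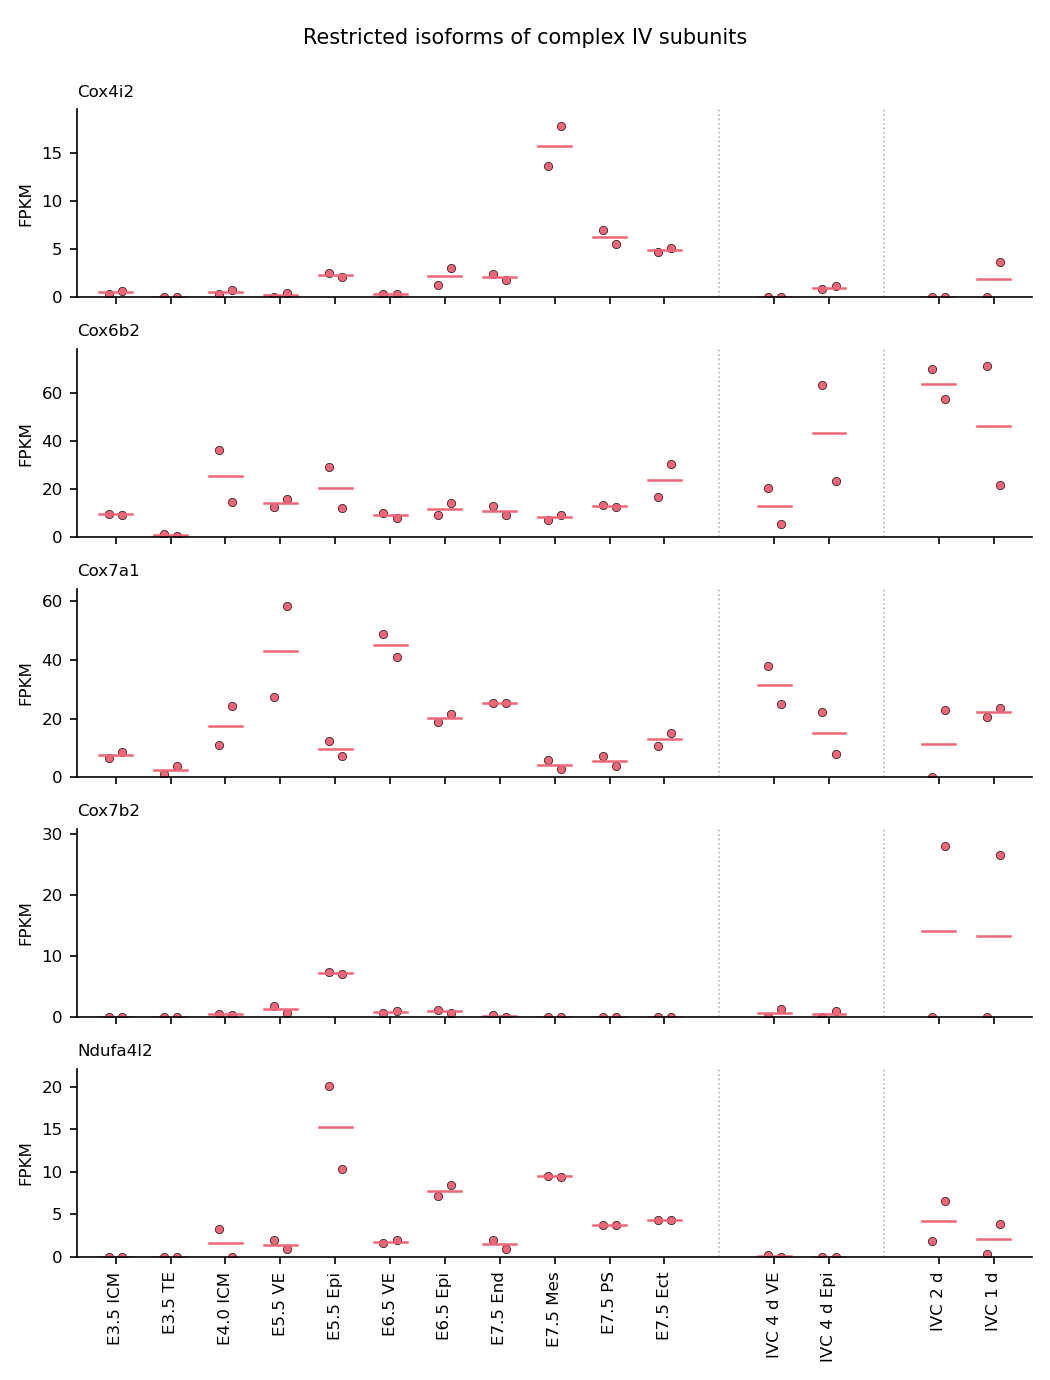
FPKM (vertical axes) of 5 restricted isoforms of complex IV by group (horizontal axis); points are libraries, bars are means of 2, and dotted lines part the 3 tables. Cox4i2 peaks in E7.5 mesoderm at 13.6 and 17.8 FPKM, Ndufa4l2 in E5.5 epiblast at 20.1 and 10.3 FPKM, and Cox7a1 has its highest library in E5.5 VE at 58.4 FPKM.

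In embryos cultured for 4 days, 3 members were called higher and 2 lower in VE than in epiblast, where 13.6% of all genes were called higher and 10.8% lower. Uqcrq was at 1088 and 755 FPKM in cultured VE, against 288 and 321 FPKM in cultured epiblast, with no overlap and a log2 fold of 1.57 ± 0.27 (adjusted p = 0.000204). Ndufa3 was at 746 and 643 FPKM in cultured VE, against 213 and 329 FPKM in epiblast (log2 fold 1.38 ± 0.31, adjusted p = 0.00186). Cox6a1, a common subunit of complex IV, was higher too (log2 fold 1.21 ± 0.34, adjusted p = 0.0116). Core genes were not called here. Atp5b was at 850 and 821 FPKM in VE, against 895 and 926 FPKM in epiblast, and Sdha at 68.4 and 71.1 FPKM in VE, against 73.7 and 80.3 FPKM in epiblast. The lower genes were Cox6b2, at 20.5 and 5.45 FPKM in VE, against 63.2 and 23.5 FPKM in epiblast, where a VE library came close to an epiblast one, and the assembly factor Ndufaf2. The call of Cox6b2 was lost without epiblast replicate 1 or VE replicate 2, and that of Ndufaf2 without VE replicate 2. The call of Cox6a1 was lost without epiblast replicate 1 or VE replicate 1. The count of 5 was 3 without cultured epiblast replicate 1, and 8 without cultured epiblast replicate 2 or without cultured VE replicate 1.

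After 2 days over 1 day of culture, 1 member was called, Ndufaf3, an assembly factor of complex I, at 20.9 and 15.5 FPKM after 2 days, against 9.94 and 2.83 FPKM after 1 day, where 6.46% of all genes were called. The groups did not overlap, but the libraries of 1 day were over 2-fold apart. Its log2 fold was 1.55 ± 0.36 (adjusted p = 0.0109), and 0.79 and not called without the library at 2.83 FPKM, replicate 2. The count was between 3 and 5 when 1 library was left out, and 0 with array weights. Quantile normalization gave 1 higher and 1 lower, against 549 higher and 456 lower of all 13493 genes. These 4 libraries were uneven. Pou5f1 was at 3.21 and 96.7 FPKM after 2 days, against 84.4 and 97.3 FPKM after 1 day, and the summed markers of trophectoderm were at 4042 and 1668 FPKM after 2 days, against 1628 and 1488 FPKM after 1 day. The part of cell makeup in the result was not tested, and fewer cells of a type and less RNA per cell cannot be told apart in any of these bulk libraries.

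Ndufs5, an accessory subunit of complex I, was near 0 in some libraries and not in others. It was at or below 0.000134 FPKM in 1 library of E5.5 VE, 1 of primitive streak, both of mesoderm and 1 of cultured VE, while the other library of E5.5 VE held 23.9 FPKM. RefSeq lists a pseudogene copy of it. In all, 13 members have such copies or close relatives in RefSeq, among them Atp5l, Uqcrh, Cox7c and Ndufab1, and their values are uncertain where reads could be split. The steadiest members across the in vivo groups were Ndufa13, Cox7b, Cox7a2 and Ndufs7.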

How the data were processed

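Expression values were deposited as FPKM per gene, which the authors made from Smart-Seq2 reads. The submitters' processing notes name TopHat2 (version 2.0.11), Cufflinks (version 2.0.2) and the mm9 build. FPKM keeps no depth, so no counting interval can be given. Of the 78 samples of the series, the 48 that are not RNA-seq were not analysed here. Genes were joined by symbol over the 3 tables (22563 shared), values at or below 1e-06 were set to 0, and log2(FPKM + 1) was tested in 1 limma 3.58.1 fit (R 4.3.3, mean-variance trend, 15 groups, 15 residual degrees of freedom) over 13493 genes that reached 1 FPKM in 2 or more libraries. Comparisons were made only within a table. P-values were adjusted by Benjamini-Hochberg over all 13493 genes, and calls took those below 0.05 whose fold, up or down, was 1 or more on the log2 scale. The fit was tested on simulated data. Genes were named by rule: per comparison up to 6 called members with the largest rise and up to 6 with the largest fall, with a group mean of at least 10 FPKM and no overlap, plus core subunits and paralogous isoforms. Values of 1 member are not reported here. Other genes printed were chosen after their values were seen. The members and all lists were chosen with earlier results of these data known. Promoter windows and copies came from RefSeq tables of GRCm38.p6. Alternatives were other pseudocounts, filters, scalings, sample sets, weights, a replicate block and leaving out each library.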

Additional observations from a re-analysis of the deposited data

Results flagged for a closer look

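For 7 members the fold of VE over epiblast was called different between E6.5 and E5.5 in a test of that difference itself (limma, adjusted over all 13493 genes). They were 7.69% of the members, where 5.28% of all genes were called in that direction. The log2 difference, E6.5 minus E5.5, was 1.77 for Ndufv1 (SE 0.51, adjusted p = 0.0451), 1.74 for Sdha (SE 0.47, adjusted p = 0.0369), 1.71 for Atp5b (SE 0.42, adjusted p = 0.0251) and 1.64 for Atp5a1 (SE 0.35, adjusted p = 0.0171). It was 1.54 for Ndufa9 (SE 0.40, adjusted p = 0.0306) and 1.49 for Ndufa10 (SE 0.43, adjusted p = 0.0454). The median of all genes in this test was 0.41, and under quantile normalization 0 of the 7 were called. Most of these calls were lost when nearly any single library was left out, as given above.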

How the results depend on the processing

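The 78 named gene results were recomputed under 9 other settings and with each library left out. The setting of adjusted p alone only drops the fold minimum, so its 78 values had to keep the call. In all there were 1042 values. Of these, 892 kept direction and call, 150 lost the call and 0 reversed. Quantile normalization ended 25 calls of 78 and leaving out a library 100 of 340. The cause was not tested.
Counts of members called moved by over 1.5 times as follows. With adjusted p alone, they were 12 for E3.5 ICM over TE, 23 for E4.0 over E3.5 ICM, 7 for E5.5 epiblast over E4.0 ICM, 43 for E5.5 VE over E4.0 ICM and 15 for cultured VE over epiblast. With quantile normalization, they were 2 for E5.5 epiblast over E4.0 ICM, 1 for streak over E6.5 epiblast, 2 for culture of 2 days over 1 day and 0 for the difference between E6.5 and E5.5. With a fit on 1 table, they were 7 for E5.5 epiblast over E4.0 ICM, 5 for E6.5 VE over epiblast, 1 for E6.5 over E5.5 epiblast, 2 for streak, 1 for mesoderm over streak, 4 for endoderm over mesoderm, 1 for endoderm over E6.5 VE and 0 for culture. With only the groups compared, the same comparisons from E6.5 VE on gave 6, 1, 3, 2, 4, 2 and 0, and the difference between stages 12. With array weights they gave 6, 1, 3, 2, 4, 1 and 0, and 13. Both libraries of a group got the same weight, so this setting reweighted groups and could not set a replicate below its partner. A pseudocount of 0.1 gave 0 for endoderm over mesoderm, and no filter on low values gave 3 for the difference between stages.
Leaving out 1 library gave 6 to 10 for E3.5 ICM over TE, 7 to 10 for E4.0 over E3.5 ICM (7 without E3.5 ICM replicate 2), 2 to 5 for E5.5 epiblast and 21 to 28 for E5.5 VE over E4.0 ICM. It gave 18 to 25 for VE over epiblast at E5.5, 0 to 3 at E6.5, 0 to 1 for E6.5 over E5.5 epiblast and 15 to 25 for E6.5 over E5.5 VE. It gave 0 to 3 for ectoderm, 0 to 1 for streak (1 without E6.5 epiblast replicate 1), 0 for mesoderm over streak and for endoderm over E6.5 VE, and 1 to 2 for endoderm over mesoderm (1 without mesoderm replicate 1, mesoderm replicate 2 or endoderm replicate 2). It gave 3 to 8 for cultured VE over epiblast, 3 to 5 for culture of 2 days over 1 day and 0 to 10 for the difference between stages. The lone library left in a group is assumed to vary like the other groups.
The labels share replicate numbers but do not say that they pair samples, and correlations of same-numbered deviations ran between -0.087 and 0.438. With the replicate block, 4 of 78 named calls were lost, and counts were 2 for culture of 2 days over 1 day and 4 for the difference between stages.
With 2 libraries a group and unknown depth, small differences and low genes are the least certain.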
